A study of Mus musculus with 18 samples.

Results

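The set described here holds 39 genes of the cell division cycle, 16 that act in S phase and DNA replication and 23 that act in G2 and mitosis. They were chosen by name: each is the probe set that the platform annotation pairs with that single symbol, and where a symbol had several probe sets (Top2a and Pcna, with 2 each) the one with the highest mean signal was kept. All 39 were found among the 19938 genes measured by a probe set with 1 symbol. The S phase members are Mcm2, Mcm3, Mcm4, Mcm5, Mcm6, Mcm7, Rrm1, Rrm2, Tyms, Pcna, Cdc6, Cdc45, Gins1, E2f1, Ccne1 and Ccne2. The mitotic members are Mki67, Top2a, Cdk1, Ccnb2, Ccna2, Cdc20, Bub1, Bub1b, Aurka, Aurkb, Plk1, Kif11, Kif20a, Kif23, Cenpe, Cenpf, Ttk, Nusap1, Prc1, Birc5, Ube2c, Foxm1 and Melk.

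Cells that enter the cycle first switch on the genes of DNA synthesis, largely through E2F transcription factors, and later those of chromosome segregation. The later genes are held down in resting cells by the DREAM complex and driven in G2 by B-Myb and FoxM1. Promoter elements named CHR and CCAAT are common in them. Transcripts of both sets are therefore used as a measure of how many cells in a culture are cycling and in which phase. Marrow progenitors grown with GM-CSF divide for some days and then stop dividing as they become dendritic cells. Bacterial lipopolysaccharide (LPS), which signals through Toll-like receptor 4, makes them mature. SUMO modification, which needs Ubc9 as its only conjugating enzyme, is required for normal mitosis in many cell types.

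The arrays came from mouse bone marrow-derived dendritic cells, wild type (UBC9WT) or knockout (UBC9KO) for Ubc9. All cultures, wild type included, were grown for 10 days with 20 ng/ml GM-CSF and were given 100 nM 4-hydroxytamoxifen at day 6, and they were then left without LPS or kept for 1 h or 6 h with 10 ng/ml LPS. Each of the 6 groups has 3 arrays, which the labels number as replicates 1 to 3 without saying whether these are separate animals or cultures. The allele, the Cre driver and the share of cells recombined were not given in the sources used here. Values are processed array signals on a log scale whose base is not given in the sources used here and is taken as log2; they carry no detection calls, and 1 gene's level is not set against another's. Array medians were 4.97 to 5.15 and arrays of 1 group correlated at 0.983 to 0.993 over all probe sets. The 13 dendritic cell markers averaged 7.93 to 8.86 on the 18 arrays and the 14 markers of granulocyte and monocyte progenitors 4.57 to 4.92, and these signals have no zero against which absence could be read. At 1 h of LPS the dendritic cell markers averaged 8.01 to 8.12 in knockout and 8.30 to 8.53 in wild type. The genotypes overlapped in this mean without LPS and at 6 h, where the knockout average was also the lower.

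Arrays of 1 genotype that carried the same replicate number deviated together from their group means: the correlation over all genes was 0.15 to 0.80 in all 18 such pairs (median 0.48). Other numbers gave -0.69 to 0.12, but deviations within a group of 3 cancel out, so these values follow from the positive ones. On the basis of the 18 pairs, and not of the labels, the 3 arrays of a genotype with one number are called a culture. Changes with LPS are given both from the fit of 6 group means and from a fit with the culture as a block. Knockout and wild-type cultures of the same number were linked only weakly. Their correlation was -0.11 to 0.30 (median 0.09), against -0.28 to 0.10 (median -0.04) for other numbers. The knockout cultures differed from each other far more than the wild-type cultures did, and values are therefore shown by culture for the genes described most fully and by group difference for the rest. Because whole cultures were measured, fewer cycling cells and less of a transcript per cycling cell cannot be told apart.

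The starts of 32 of the 39 genes were matched by symbol in a table of RefSeq promoters on GRCm38.p6, each 300 bases long, from 250 before to 50 after the start. They are shown because the S phase and the mitotic genes differ there in the share with a CHR or an E2F match. The following motifs were searched on both strands: CCAAT, the CHR as TTTGAA or TTCGAA, and the E2F site as TTTCCCGC, TTTGGCGC, TTTCGCGC or TTTGCCGC. A CHR match was present in 15 of 19 mitotic promoters (78.9%) and in 3 of 13 S phase promoters (23.1%), beside 19.4% of the 27025 genes of the table. A CCAAT match was present in 16 of 19 mitotic (84.2%) and 9 of 13 S phase promoters (69.2%), beside 37.9% of all. An E2F match was present in 1 of 19 mitotic (5.3%, Cdk1) and 5 of 13 S phase promoters (38.5%, Mcm3, Mcm5, Mcm6, Mcm7 and Cdc6), beside 2.3% of all. Where matches shared bases, these were 2 E2F matches in Mcm5 and in Mcm6, 2 CCAAT matches in Ube2c, and an E2F and a CCAAT match in Mcm7 that share 1 base. A match is only these letters in this window. The promoters of 4 mitotic and 2 S phase genes follow, 5′ to 3′ along the gene, with the matches in capitals.
Mki67 (chr7:135716330-135716629, minus strand): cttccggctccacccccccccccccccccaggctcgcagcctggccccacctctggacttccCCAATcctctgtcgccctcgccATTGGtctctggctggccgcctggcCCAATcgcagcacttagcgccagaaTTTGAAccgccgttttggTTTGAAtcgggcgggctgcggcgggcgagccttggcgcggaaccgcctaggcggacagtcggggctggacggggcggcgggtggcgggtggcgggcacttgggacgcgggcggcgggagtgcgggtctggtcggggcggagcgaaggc
Top2a (chr11:99024140-99024439, minus strand): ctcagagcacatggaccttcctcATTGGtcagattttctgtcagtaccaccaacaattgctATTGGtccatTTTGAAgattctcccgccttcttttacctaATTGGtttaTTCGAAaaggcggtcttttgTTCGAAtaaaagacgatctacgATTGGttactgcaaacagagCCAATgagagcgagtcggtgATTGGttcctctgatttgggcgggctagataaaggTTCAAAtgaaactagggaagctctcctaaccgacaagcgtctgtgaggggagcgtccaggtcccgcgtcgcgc
Cdk1 (chr10:69352863-69353162, minus strand): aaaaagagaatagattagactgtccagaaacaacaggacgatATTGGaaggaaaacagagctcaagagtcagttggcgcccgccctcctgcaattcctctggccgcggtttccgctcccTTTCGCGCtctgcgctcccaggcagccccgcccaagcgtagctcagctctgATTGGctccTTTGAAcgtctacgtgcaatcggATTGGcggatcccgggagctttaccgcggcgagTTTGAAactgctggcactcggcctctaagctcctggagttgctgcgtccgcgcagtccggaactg
Ccnb2 (chr9:70421505-70421804, minus strand): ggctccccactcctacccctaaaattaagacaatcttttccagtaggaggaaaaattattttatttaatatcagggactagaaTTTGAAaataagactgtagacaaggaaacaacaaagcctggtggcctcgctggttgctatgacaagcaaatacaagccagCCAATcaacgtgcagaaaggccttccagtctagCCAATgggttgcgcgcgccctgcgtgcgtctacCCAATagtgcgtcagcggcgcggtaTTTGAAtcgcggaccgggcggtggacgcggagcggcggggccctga
Mcm2 (chr6:88898731-88899030, minus strand): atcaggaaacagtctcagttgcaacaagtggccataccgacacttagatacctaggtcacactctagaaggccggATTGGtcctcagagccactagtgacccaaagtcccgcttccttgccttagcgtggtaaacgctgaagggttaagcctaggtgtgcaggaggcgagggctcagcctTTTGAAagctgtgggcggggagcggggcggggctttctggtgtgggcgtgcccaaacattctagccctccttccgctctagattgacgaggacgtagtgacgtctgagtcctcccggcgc
Mcm5 (chr8:75109259-75109558, plus strand): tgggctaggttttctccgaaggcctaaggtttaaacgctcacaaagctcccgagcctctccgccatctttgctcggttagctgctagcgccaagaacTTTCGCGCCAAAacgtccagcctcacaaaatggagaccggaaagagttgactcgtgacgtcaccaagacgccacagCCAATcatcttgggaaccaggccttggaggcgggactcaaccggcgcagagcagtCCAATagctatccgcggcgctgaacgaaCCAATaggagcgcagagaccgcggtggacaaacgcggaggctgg
Cdk1 holds both kinds, an E2F match and 2 CHR matches, whereas Mki67, Top2a and Ccnb2 hold CHR and CCAAT matches only and Mcm5 holds E2F and CCAAT matches only. The S phase gene Mcm2 holds a CHR and a CCAAT match and no E2F match, like Mki67, Top2a and Ccnb2. The promoters of Rrm2 and Pcna, which are not printed, each hold 1 match, a CCAAT.

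The first comparison is of knockout and wild type without LPS, and the knockout cultures differed in it. A knockout culture is 1 array here, and the members of a list largely moved together. A count of members on 1 array is therefore not a count of independent observations. In culture 1, no member lay below all 3 wild-type arrays, and 8 of 16 S phase and 11 of 23 mitotic members lay above them, where 24.2% of all genes lay below and 25.3% above. In culture 2, 8 S phase members lay above the wild-type arrays and 18 mitotic members lay below them, where 23.7% of all genes lay above and 24.8% below. In culture 3, 12 of 16 S phase and 23 of 23 mitotic members lay below all wild-type arrays, where 26.6% of all genes did.

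Mki67, the proliferation marker that coats mitotic chromosomes, read 9.22, 8.77 and 8.65 in the wild-type cultures 1, 2 and 3 and 8.70, 8.25 and 6.84 in the knockout cultures. Top2a, the topoisomerase that untangles sister chromatids, read 8.61, 8.66 and 8.58 in wild type and 8.97, 8.30 and 6.41 in knockout. For Ccnb2, a B-type cyclin that activates the mitotic kinase, the wild-type values were 9.27, 9.12 and 8.40 and the knockout values 8.91, 7.85 and 6.38. In all 3 genes the knockout order was culture 1, then 2, then 3, and the groups overlapped through culture 1. Plk1, a kinase of mitotic entry and spindle assembly, gave 7.83, 7.77 and 7.31 in wild type against 7.72, 6.78 and 5.42 in knockout. Foxm1, the transcription factor of the G2 genes, gave 7.17, 7.62 and 6.84 in wild type and 7.35, 6.65 and 5.80 in knockout. Cdk1, the mitotic kinase itself, was the least spread of the mitotic genes over the knockout cultures, at 8.91, 8.60 and 7.87, with 8.61, 8.0 and 8.62 in wild type. Knockout culture 3 was lower than knockout culture 1 for all 23 mitotic members, with a median difference of -2.25. The extremes were Bub1 at -2.96 and Cdk1 at -1.04. In wild type, culture 3 was also lower than culture 1 for 20 of 23, with a median difference of -0.305.

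The S phase members spread less between the knockout cultures, and culture 2 stood with culture 1. Mcm2, a subunit of the replicative helicase, read 7.11, 7.70 and 7.49 in wild type and 7.88, 8.11 and 7.23 in knockout. Its partner Mcm5 read 7.18, 7.78 and 7.43 in wild type and 7.62, 7.90 and 6.94 in knockout. Pcna, the sliding clamp of the polymerases, read 11.14, 11.13 and 11.06 in wild type and 11.11, 11.08 and 10.90 in knockout. In culture 3, Mcm5 was below wild type and Mcm2 was within its range, and Pcna differed little between all 6 arrays. Rrm2, the subunit that limits deoxynucleotide supply, was 8.10, 9.27 and 8.48 in wild type and 8.53, 8.39 and 6.83 in knockout. Ccne2, a cyclin that drives entry into S phase, was 6.43, 6.73 and 6.85 in wild type and 7.25, 7.51 and 5.77 in knockout, and its relative Ccne1 was 7.47, 8.33 and 7.79 in wild type and 8.26, 8.30 and 7.50 in knockout. E2f1 was 6.87, 6.98 and 7.17 in wild type and 7.21, 7.17 and 7.08 in knockout. Rrm2 and Ccne2 thus showed culture 3 far below wild type while cultures 1 and 2 were within or above its range. Between cultures 3 and 1 the S phase members differed by a median of -0.74, from -1.71 for Rrm2 to -0.13 for E2f1.

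**Figure D1:**
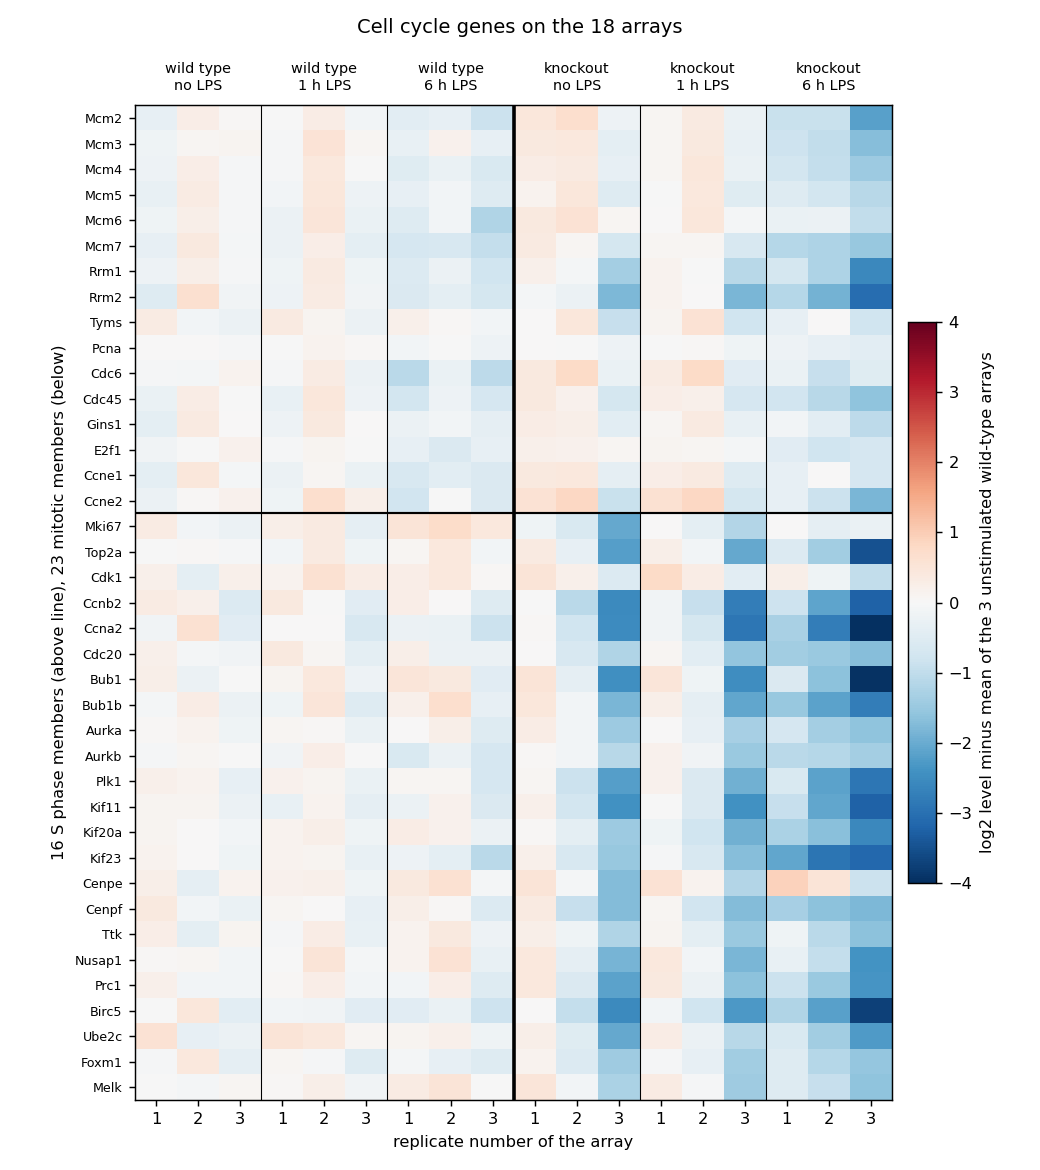
The 39 members (rows, S phase above the line) on the 18 arrays (columns), coloured by log2 level minus the mean of the 3 unstimulated wild-type arrays. The mean of the mitotic members declines from knockout culture 1 to 3 in every condition, and within each knockout culture most members are lower at 6 h than without LPS, apart from Mki67 and Cenpe.

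In the test over groups, no member was called between knockout and wild type without LPS. A gene was called when limma's adjusted p, by Benjamini-Hochberg over all 19938 genes, was under 0.05, and 2.44% of all genes were called in either direction. At an unadjusted p under 0.05 there were 0 S phase members and 1 mitotic member, Mki67 (-0.95 ± 0.37, standard error, 3 arrays a group, adjusted p = 0.269). For each gene, 1 estimate of the spread is shared by all groups of the fit. A standard error given for wild type thus also carries the spread between knockout cultures, and one for knockout is narrowed by wild type. For Top2a without LPS, the SD was 0.04 in wild type and 1.33 in knockout. The median difference was 0.08 for S phase and -0.66 for mitotic members, against 0.00 over all genes, and 22 of 23 mitotic members were on the lower side. Leaving out knockout culture 3 brought these medians to 0.29 and -0.12. At 1 h of LPS the picture was the same: 0 members called, where 2.19% of all genes were, medians of -0.04 and -0.67, and 1 mitotic member at an unadjusted p under 0.05. No member had all its knockout arrays below all its wild-type arrays without LPS (6.54% of all genes did) or at 1 h (12% did).

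In the group fit, 1 h of LPS itself called no member in either genotype, where 0.301% of all genes were called in wild type and 0.667% in knockout. No member reached an unadjusted p under 0.05 in that fit. With the culture as a block no member was called either. The smallest adjusted p was that of Kif20a in knockout (-0.36 ± 0.10, adjusted p = 0.0795), which changed by -0.22, -0.41 and -0.46 in cultures 1, 2 and 3. The interaction is the difference between the LPS responses of the genotypes. In the group fit it called 0% of all genes at 1 h, and again no member reached an unadjusted p under 0.05. With the block it called no member, and Kif20a had the smallest adjusted p (-0.43 ± 0.13, adjusted p = 0.789). The changes within a culture at 1 h were small: their median lay between -0.14 and 0.14 for S phase and between -0.13 and 0.19 for mitosis over the 6 cultures. Single members differed more in wild-type culture 2, where Cdk1 went from 8.0 to 9.01, and in knockout culture 3, where Ube2c went from 6.21 to 7.17.

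At 6 h of LPS most mitotic genes were lower in the knockout. Of the 23, 14 were called lower and none higher, and of the 16 S phase members 1 was called lower, so 15 of 39 in all, where 18.8% of all genes were called lower. All 3 knockout arrays lay below all 3 wild-type arrays for 17 of 23 mitotic and 7 of 16 S phase members, where 24.8% of all genes did. The median difference was -1.48 for mitotic and -0.51 for S phase members, against 0.04 over all genes. All 23 mitotic differences were negative, while Mcm6, Cdc6 and Ccne1 were positive among the S phase members and none of these 3 was called.

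The kinesins of cytokinesis showed the clearest difference. Kif23, which bundles the central spindle, read 8.11, 7.94 and 7.25 in wild type and 6.25, 5.40 and 5.20 in knockout, a difference of -2.15 ± 0.41 (adjusted p = 0.00094). Kif20a, a kinesin of the same structure, read 7.33, 7.21 and 6.80 in wild type and 5.77, 5.39 and 4.45 in knockout, a difference of -1.91 ± 0.41 (adjusted p = 0.00219). In both genes all knockout arrays lay well below the lowest wild-type array. Kif11, the motor that separates spindle poles, was also below wild type in every array (-1.86 ± 0.64, adjusted p = 0.0387). Prc1, a further bundler of the central spindle, had no overlap but did not pass the test at -1.46 ± 0.55 (adjusted p = 0.0554).

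Among genes of the spindle checkpoint and the anaphase-promoting complex, Bub1b read 7.62, 8.08 and 7.08 in wild type and 5.90, 5.27 and 4.63 in knockout (-2.32 ± 0.57, adjusted p = 0.00555). Cdc20, the activator of the complex, read 7.28, 6.81 and 6.83 in wild type and 5.67, 5.59 and 5.35 in knockout (-1.44 ± 0.34, adjusted p = 0.00436), and its 3 knockout arrays were close together although their unstimulated values were not. Ube2c, the ubiquitin carrier of the complex, was lower by the same test (-1.48 ± 0.49). Bub1, a checkpoint kinase singled out after its values were seen, had the third largest difference and the largest standard error of the mitotic members (-2.20 ± 0.82, adjusted p = 0.0557), and the kinase Ttk likewise did not pass (-1.06 ± 0.42, adjusted p = 0.0667).

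Of the cyclins and mitotic kinases, Ccnb2 read 9.20, 8.93 and 8.42 in wild type and 8.11, 6.82 and 5.70 in knockout (-1.98 ± 0.68, adjusted p = 0.0372). Ccna2, the cyclin of S phase and G2, differed by -2.26 ± 0.73 (adjusted p = 0.028). Plk1 read 7.71, 7.71 and 6.98 in wild type and 7.01, 5.51 and 4.75 in knockout (-1.71 ± 0.59, adjusted p = 0.038), and its knockout culture 1 lay just inside the wild-type range. Aurka, the kinase of the spindle poles, was called (-1.13 ± 0.39, adjusted p = 0.0375), and Aurkb, its relative at centromeres, was not (-0.69 ± 0.33, adjusted p = 0.131). Birc5, the Aurkb partner survivin, was called at -1.85 ± 0.64 and the kinase Melk at -1.29 ± 0.42. Cdk1 read 8.67, 8.84 and 8.45 in wild type and 8.64, 8.24 and 7.44 in knockout, overlapping groups that were not called (-0.55 ± 0.33, adjusted p = 0.224). Foxm1 read 7.13, 6.88 and 6.69 in wild type and 6.71, 6.08 and 5.67 in knockout, and was not called either (adjusted p = 0.153).

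Among chromosome and centromere genes, Top2a read 8.71, 9.05 and 8.52 in wild type and 8.07, 7.23 and 5.14 in knockout, the widest spread of knockout cultures among the called genes (-1.95 ± 0.69, adjusted p = 0.0438). Cenpf, a kinetochore protein, was lower, at -1.50 ± 0.44 (adjusted p = 0.0174), at a mean level near the middle of all genes, as were Cdc6 and Ttk. Nusap1, a spindle protein, was not called (-1.36 ± 0.60, adjusted p = 0.1). Mki67 and the kinetochore motor Cenpe were not called either. Mki67 read 9.39, 9.63 and 9.30 in wild type and 8.90, 8.53 and 8.61 in knockout (-0.76 ± 0.37, adjusted p = 0.137): its knockout arrays were all below wild type but close to each other. Cenpe read 7.03, 7.25 and 6.56 in wild type and 7.56, 7.16 and 5.79 in knockout, with a difference of -0.11 ± 0.53. Cenpe was singled out after its values were seen.

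Of the S phase members, Mcm3 alone was called at 6 h, with 7.58, 8.06 and 7.56 in wild type and 7.05, 6.90 and 6.19 in knockout (-1.02 ± 0.26, adjusted p = 0.00651). Mcm2 read 7.01, 7.09 and 6.58 in wild type and 6.55, 6.54 and 5.27 in knockout, Mcm4 7.42, 7.64 and 7.31 in wild type and 7.18, 6.97 and 6.46 in knockout, and Rrm2 8.04, 8.23 and 7.91 in wild type and 7.47, 6.74 and 5.56 in knockout. These 3 had no overlap between genotypes but adjusted p of 0.0652, 0.0605 and 0.052. Pcna read 11.00, 11.09 and 10.91 in wild type and 10.90, 10.78 and 10.70 in knockout, again apart but by only -0.21 ± 0.09 (adjusted p = 0.0981). Mcm5 read 7.14, 7.36 and 6.94 in wild type and 6.94, 6.74 and 6.36 in knockout, and E2f1 6.69, 6.42 and 6.66 in wild type and 6.54, 6.20 and 6.34 in knockout, with overlap in both. Ccne1 read 7.21, 7.44 and 7.28 in wild type and 7.55, 7.88 and 7.19 in knockout, so that 2 knockout arrays were above wild type, and Ccne2 read 5.91, 6.66 and 6.10 in wild type and 6.35, 5.80 and 4.86 in knockout. Of the remaining members, Mcm7 and Cdc45 had no overlap without passing the test, and Mcm6, Rrm1, Tyms, Cdc6 and Gins1 overlapped.

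**Figure D2:**
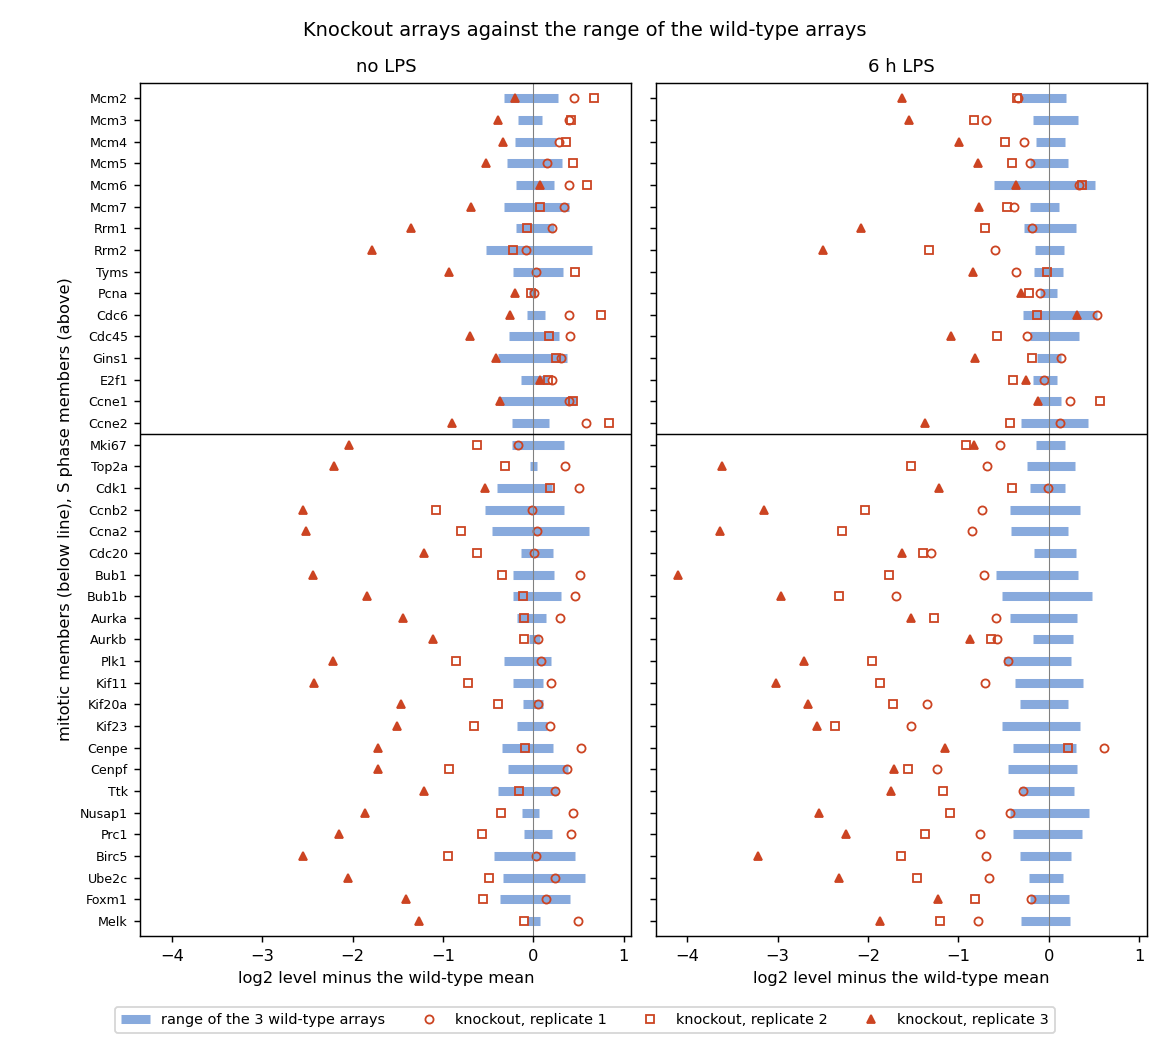
Each knockout array (red marks) against the range of the 3 wild-type arrays (bars) for all 39 members, without LPS and at 6 h, as log2 level minus the wild-type mean. Without LPS the marks of knockout culture 3 lie below the bars for all 23 mitotic members, and at 6 h all 3 lie below the bars for 17 of 23 mitotic and 7 of 16 S phase members.

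The number called at 6 h depended on single arrays. It was 5 without wild-type array 1, 5 without wild-type array 2, 7 without knockout array 2, 5 without knockout array 3 and 24 without knockout array 1, all of the 6 h groups, and 20 without the 3 arrays of knockout culture 3. Kif23, Kif20a, Bub1b, Cdc20 and Mcm3 kept an adjusted p under 0.05 in all 28 alternative fits, and the other 10 lost it in 3 (Cenpf) to 15 (Top2a) of them.

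The response to 6 h of LPS was then read within each genotype. The difference between cultures drops out of the changes within a culture and of the fit with the culture as a block, but stays in the error of the group fit. It uses the same 6 h arrays as the comparison of genotypes, so the results are not independent. In wild type the S phase genes were lower after LPS and the mitotic genes showed no common direction. The median change was -0.49 for S phase and -0.08 for mitotic members, against -0.01 over all genes. In the 3 cultures, 15, 14 and 15 of 16 S phase members were lower after LPS, whereas 13, 8 and 20 of 23 mitotic members were. The group fit called 1 member, E2f1, at -0.41 ± 0.11 (adjusted p = 0.0248), where 3.86% of all genes were called lower. That call was lost without unstimulated array 2 or 3 or 6 h array 2 of wild type, and 2 members were called without unstimulated knockout array 3. With the culture as a block, 12 members were called lower, 10 of S phase and 2 of mitosis, and none higher, where 7.78% of all genes were called lower. The 10 were Mcm2, Mcm4, Mcm6, Mcm7, Rrm1, Rrm2, Cdc6, Cdc45, E2f1 and Ccne1, and the 2 were Kif23 and Birc5.

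By culture, the wild-type change of Mcm7 was -0.34, -1.04 and -0.89, and that of the initiation factor Cdc45 was -0.48, -0.49 and -0.64 (-0.54 ± 0.09, adjusted p = 0.00103 with the block). Ccne1 moved by -0.26, -0.89 and -0.51 (-0.55 ± 0.12, adjusted p = 0.00429), and E2f1 by -0.18, -0.56 and -0.51. All of these were lower in all 3 wild-type cultures, as were 13 of 16 S phase members, with Mcm3, Tyms and Gins1 as the others. Of the mitotic members, Kif23 changed by -0.37, -0.42 and -0.90 (-0.56 ± 0.14, adjusted p = 0.0147). Top2a changed by 0.10, 0.39 and -0.06 and Cdk1 by 0.07, 0.83 and -0.17, with no shared sign. Only 6 of 23 mitotic members were lower in all 3 wild-type cultures, and 1, Mki67, was higher in all 3 (0.17, 0.86 and 0.66).

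In the knockout, both the S phase and the mitotic genes were lower after 6 h of LPS. The median change was -0.97 for S phase and -0.83 for mitotic members, against 0.03 over all genes. Of the 16 S phase members, 16, 16 and 15 were lower in cultures 1, 2 and 3, Tyms in culture 3 being the exception at 0.14. Of the 23 mitotic members, 21 were lower in each culture, and the same 2, Mki67 and Cenpe, were higher in all 3. The group fit called 12 members lower, 9 of S phase and 3 of mitosis, where 20.2% of all genes were called lower. With the culture as a block it was 35 lower, 15 of S phase and 20 of mitosis, where 25.5% of all genes were called lower, and 2 mitotic members higher, where 17% of all genes were. Cdk1 and Tyms were the members not called with the block.

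E2f1 gave the smallest adjusted p of the group fit: its knockout levels were 7.21, 7.17 and 7.08 without LPS and 6.54, 6.20 and 6.34 at 6 h, a change of -0.79 ± 0.11 (adjusted p = 3.52e-05). Mcm2 fell from 7.88, 8.11 and 7.23 to 6.55, 6.54 and 5.27 (-1.62 ± 0.30, adjusted p = 0.000621). Mcm3 fell from 8.28, 8.30 and 7.49 to 7.05, 6.90 and 6.19 (-1.31 ± 0.26) and Mcm4 from 8.20, 8.28 and 7.58 to 7.18, 6.97 and 6.46 (-1.15 ± 0.22). Each of these fell in all 3 cultures, and all 6 helicase subunits were called by the group fit. Ccne2 moved by -0.90, -1.71 and -0.92 (-1.18 ± 0.16, adjusted p = 2.74e-05 with the block), Rrm2 by -1.07, -1.65 and -1.27 (-1.33 ± 0.16) and Pcna by -0.21, -0.30 and -0.21 (-0.24 ± 0.07).

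Kif23 had the largest fall of the 39, with 8.52, 7.68 and 6.82 in the unstimulated knockout and changes of -2.27, -2.28 and -1.61 (-2.06 ± 0.41, adjusted p = 0.00118). Kif20a changed by -1.33, -1.27 and -1.13 from 7.09, 6.66 and 5.58 (-1.24 ± 0.41, adjusted p = 0.0295), and Bub1b by -1.97, -2.02 and -0.93 from 7.87, 7.30 and 5.57 (-1.64 ± 0.57, adjusted p = 0.0366). The falls of Kif23 and Bub1b were smaller in culture 3, where both started lower. Top2a changed by -0.90, -1.07 and -1.27 (-1.08 ± 0.12, adjusted p = 4.61e-06 with the block), Ccnb2 by -0.80, -1.03 and -0.68 (-0.84 ± 0.11) and Plk1 by -0.70, -1.27 and -0.67 (-0.88 ± 0.12), and the group fit called none of these 3. For Cdc20, with unstimulated values of 7.06, 6.43 and 5.85, the changes were -1.39, -0.84 and -0.50, and for Foxm1 they were -0.65, -0.57 and -0.12.

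Mki67 went the other way, by 0.20, 0.28 and 1.77 in knockout cultures 1, 2 and 3 (0.75 ± 0.23, adjusted p = 0.0161 with the block, 0.137 without). Its rise was largest in culture 3, which had started at 6.84, far below the others. Cenpe moved by 0.40, 0.62 and 0.88 (0.63 ± 0.16, adjusted p = 0.00629 with the block, 0.382 without). At 1 h of LPS, the Mki67 changes in the knockout were 0.18, 0.24 and 0.86, again largest in culture 3.

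The number of members that the group fit called in the knockout at 6 h was 7 (1 of them higher) without unstimulated array 1, 7 without unstimulated array 2, 29 without unstimulated array 3, 19 without 6 h array 1 and 6 without 6 h array 3, all of the knockout, and 25 without the whole of culture 3. Mcm2, Mcm3, Mcm4, Mcm7, E2f1 and Kif23 kept the call in all 28 alternative fits, while the other 6 lost it in 2 (Cdc45) to 10 (Cdc6).

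**Figure D3:**
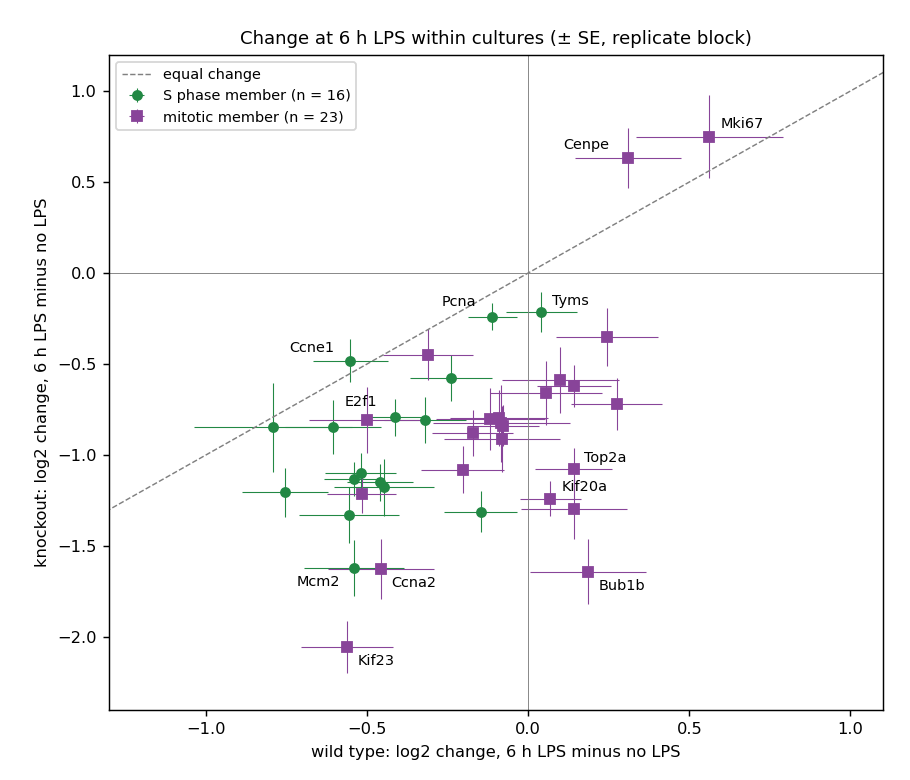
Log2 change from no LPS to 6 h in wild type (x axis) and knockout (y axis) for each member, with standard errors from the fit that has the culture as a block. The median S phase member is at -0.49 in wild type and -0.97 in knockout, the median mitotic member at -0.08 and -0.83, and Mki67 and Cenpe are above 0 on both axes.

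Whether the genotypes responded differently to 6 h of LPS was tested by the interaction, knockout change minus wild-type change. The group fit called no member, where 7.18% of all genes were called lower, and 4 S phase and 3 mitotic members had an unadjusted p under 0.05. With the culture as a block, 21 members were called, 7 of S phase and 14 of mitosis, all with the knockout lower, where 15.2% of all genes were called lower. The median interaction was -0.47 for S phase and -0.74 for mitotic members, against 0.01 over all genes. Kif20a changed by 0.07 ± 0.10 in wild type and -1.24 ± 0.10 in knockout, an interaction of -1.31 ± 0.13 (adjusted p = 2.44e-05 with the block, 0.17 without). Bub1b gave -1.83 ± 0.25 (adjusted p = 0.000217 and 0.167), Top2a -1.22 ± 0.17 (0.000204 and 0.468) and Mcm3 -1.16 ± 0.16 (0.0002 and 0.0528). Of the genes called lower in both genotypes with the block, those with the smallest interactions included Ccne1 (0.07 ± 0.16), Cdc6 (-0.06 ± 0.35) and Mcm6 (-0.24 ± 0.21), none of them called. For Mki67 the interaction was 0.18 ± 0.32 and for Cenpe 0.32 ± 0.23, neither called. Without unstimulated knockout array 3, the group fit called 4 members, and without knockout culture 3 it called 6.

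The S phase and mitotic genes were set side by side through their mean level on each array. The S phase mean was 7.57, 8.0 and 7.78 in wild-type cultures 1, 2 and 3 without LPS and 7.31, 7.57 and 7.17 at 6 h. In the knockout it was 8.06, 8.11 and 7.22, and then 7.22, 7.0 and 6.40. All 6 cultures were lower at 6 h in this mean. The mitotic mean was 7.82, 7.70 and 7.52 in wild type and 7.76, 7.86 and 7.29 at 6 h. In the knockout it was 7.91, 7.21 and 5.87, and then 6.93, 6.22 and 5.35. So S phase genes separated culture 3 from the other knockout cultures, and mitotic genes separated all 3.

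The mitotic mean minus the S phase mean, which is read only as it moves between arrays, was 0.25, -0.30 and -0.26 in wild type without LPS and -0.15, -0.91 and -1.35 in knockout. At 6 h it was 0.45, 0.29 and 0.12 in wild type and -0.29, -0.78 and -1.05 in knockout. The genotypes overlapped in this difference without LPS and did not overlap at 6 h. In wild type it rose with 6 h of LPS in all 3 cultures. In the knockout it moved down in culture 1 and up in cultures 2 and 3.

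**Figure D4:**
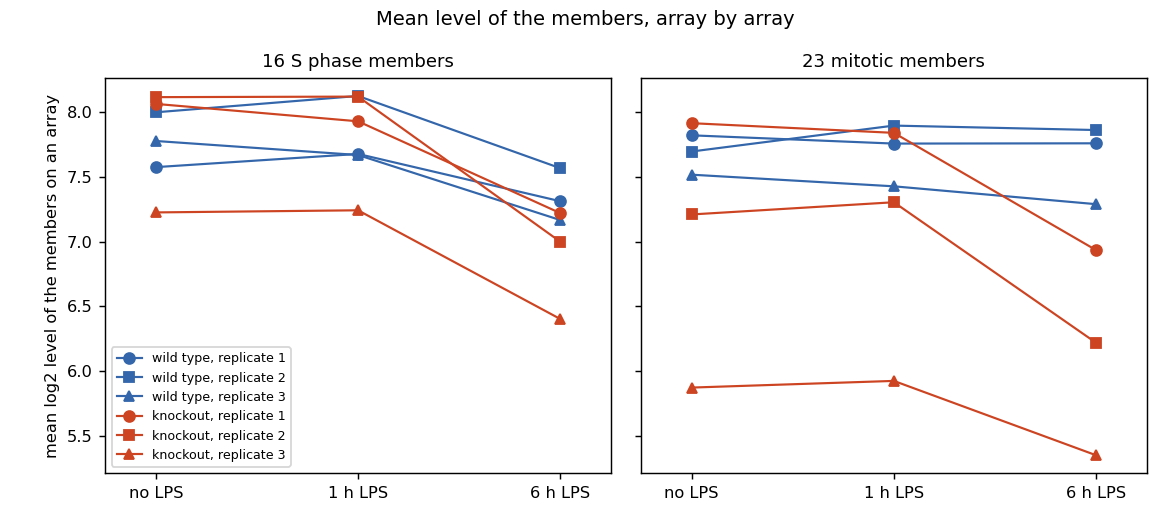
Mean log2 level of the 16 S phase members (left) and the 23 mitotic members (right) on each array, joined within a culture over the 3 conditions. The S phase means drop at 6 h in all 6 cultures, the mitotic means drop in the 3 knockout cultures, from 7.91, 7.21 and 5.87 to 6.93, 6.22 and 5.35, and knockout culture 3 is lowest throughout.

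The pathway around the 39 genes was read from further lists that do not overlap with them. Beside the counts at 6 h stand these shares of all genes: between genotypes 18.8% were called lower and 10.6% higher, and among changes with LPS in the knockout 20.2% were called lower and 12% higher (25.5% and 17% with the block). In wild type the shares were 3.86% and 4.23% (7.78% and 7.28% with the block), and for the interaction 7.18% and 3% (15.2% and 6.63% with the block). Of 40 other replication factors, 12 were lower and 3 higher in the knockout at 6 h. Dnmt1, the methyltransferase that follows the fork, was lower, at -1.02 ± 0.12 (adjusted p = 1.43e-05). The 3 that were higher included Timeless (1.40 ± 0.15, adjusted p = 6.51e-06), a protein of the fork, and Rfc3 (1.41 ± 0.19, adjusted p = 4.49e-05), a subunit of the clamp loader, against the direction of the list. After 6 h of LPS, 26 of the 40 fell and 2 rose in the knockout, and 4 fell in wild type (14 with the block), among them Rfc2, Dnmt1 and Cdt1. The interaction called 4 lower and 2 higher (22 and 2 with the block), with Dnmt1 at -1.04 ± 0.17 and the origin factor Orc2 at -1.09 ± 0.24.

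Of 58 other mitotic factors, 28 were lower and 2 higher in the knockout at 6 h. The 2 higher ones were Ccnf (2.76 ± 0.24, adjusted p = 6.67e-07), the cyclin of a ubiquitin ligase, and Pttg1 (1.53 ± 0.19, adjusted p = 1.95e-05), the securin that guards sister chromatids. Both were also the only genes of this list called without LPS, at 1.83 ± 0.24 and 1.0 ± 0.19. Bub3, a checkpoint protein, was lower at 6 h, at -0.55 ± 0.09. In the knockout, 13 of the 58 fell with LPS, a share near the 20.2% of all genes, and 1, Pttg1, rose (1.08 ± 0.19). With the block 47 fell, where 25.5% of all genes did, and 4 rose. In wild type none was called without the block, with 6 at an unadjusted p under 0.05, and 12 fell and 2 rose with it. The interaction called Bub3 alone without the block (-0.625 ± 0.125, adjusted p = 0.00499). With the block it called 31 lower and 2 higher, where 15.2% and 6.63% of all genes were.

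Of 15 G1 cyclins and kinases, 9 were lower in the knockout at 6 h and 2, Ccnd1 and Ccnd2, were higher. Cdk4, the kinase of the D cyclins, was lower, at -0.88 ± 0.11 (adjusted p = 1.66e-05), and Cdk7 and the ubiquitin ligase subunit Skp2 at -0.73 ± 0.12 and -0.66 ± 0.14. In wild type, 4 of the 15 fell with 6 h of LPS: Ccnd1 (-1.28 ± 0.19), Ccnd3 (-1.13 ± 0.21), Cdk4 (-0.38 ± 0.11) and Myc (-1.59 ± 0.33). All 4 fell in the knockout too, Myc by -2.38 ± 0.33 and Cdk4 by -1.21 ± 0.11, and the interaction was called for Cdk4 (-0.82 ± 0.15, adjusted p = 0.00291) and Cdk7 (2 genes without the block, 6 with it).

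Of 7 CDK inhibitors measured, none was higher and 2 were lower in the knockout at 6 h, too few to set against the 18.8% of all genes, Cdkn2c (-1.31 ± 0.42, adjusted p = 0.0252) and Cdkn1b (-0.59 ± 0.22, adjusted p = 0.0497). Of 18 E2F, RB and DREAM regulators, 2 were higher and 5 lower, where 18.8% of all genes were lower, so these counts say nothing particular about the list. Rbl1, which encodes the pocket protein p107, was higher, at 1.75 ± 0.15 (adjusted p = 5.4e-07), while Rbl2, which encodes its relative p130, was lower, at -0.90 ± 0.14 (adjusted p = 0.000112). Rbl1 rose with LPS in the knockout (1.22 ± 0.15) and differed by -0.45 ± 0.15 in wild type (adjusted p = 0.09, and 0.00505 with the block, which calls it lower), with an interaction of 1.67 ± 0.21 (adjusted p = 0.000219). E2f5, a partner of these pocket proteins, rose in both, by 1.60 ± 0.10 and 1.03 ± 0.10. Of 23 genes of the S phase checkpoint and of recombination repair, 3 were lower in the knockout at 6 h, a smaller share than the 18.8% of all genes, namely Blm, Chek2 (-1.24 ± 0.31) and Atr, and 8 fell with LPS in the knockout (14 with the block). Of 6 histone genes matched, the variants H2ax (-1.72 ± 0.40) and H2az1 (-0.49 ± 0.08) were lower.

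The means of the interferon and macrophage lists rose from knockout culture 1 to 3 without LPS. The 17 interferon-inducible genes averaged 9.08, 9.76 and 10.70 in unstimulated knockout cultures 1, 2 and 3 and 5.62 to 5.85 in wild type, and 16 of them were called higher. The 13 macrophage markers averaged 8.47, 8.69 and 9.38 in these knockout cultures. In wild-type cultures 1, 2 and 3 they averaged 8.07, 8.32 and 8.43, the same order over a narrower range. Adgre1, Fcgr1 and Cd14 were called higher in the knockout, and 4 of the 13 were on the lower side. At 6 h Adgre1, Fcgr1 and Mertk of this list were called higher and Csf1r and Marco lower, and Marco was also called lower at 1 h. Of the dendritic cell markers, Itgax was called lower without LPS (-0.39 ± 0.08, adjusted p = 0.0142). At 6 h those called included Itgax (-0.44 ± 0.08) and Irf4 (-1.05 ± 0.21), both lower, and Dpp4 (1.47 ± 0.42), higher. Of the progenitor markers, Sox4 (-0.80 ± 0.25) was called lower at 6 h and Mpo (0.36 ± 0.13) higher. Without LPS the interferon and macrophage means were both highest in knockout culture 3, where the mitotic members were lowest. In wild type the macrophage mean was also highest, and the mitotic mean lowest, in culture 3. At 6 h the interferon list averaged 11.31 to 11.36 in the knockout and 7.64 to 9.05 in wild type, so that the knockout cultures no longer differed in it while their mitotic means still did. The part of these genes in the results above was not tested. For the signals of all probe sets, the 75th percentile lay at 7.39 to 7.51 on 15 arrays and at 7.15 to 7.33 on the 3 from the knockout at 6 h. The part of this in the results was not tested. Centring each array on its median left 15 members called between genotypes at 6 h. The medians were already close (4.97 to 5.15), so centring cannot adjust for a lower 75th percentile.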

How the data were processed

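RNA from 18 dendritic cell samples (200 ng each) was measured on 18 Affymetrix arrays of the Mouse Gene ST type. The deposited table holds 1 log2 signal per probe set and array, made by the authors with RMA, per the submitters' processing notes; the base of the logarithm is not given in the sources used here and was taken from the range, 1.5 to 13.71. All 18 columns were matched to samples by name. Of 35556 probe sets, 21789 have 1 symbol in the platform annotation, 1621 have several and 12146 are not listed, which left 19938 genes. Where a gene had several probe sets (999 genes), the one with the highest mean was used.

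Group means of all 6 groups were fitted with limma 3.58.1 in R 4.3.3 (12 residual degrees of freedom), with empirical Bayes moderation and Benjamini-Hochberg adjustment over all genes, and 9 comparisons were made. A second fit added the culture as a block within genotype (8 residual degrees of freedom), because same-numbered arrays of a genotype deviated together in all 18 pairs (lowest correlation 0.15), whereas those of different genotypes did not in all 27 pairs (-0.11 to 0.30). The numbers come from the labels, which do not say whether they stand for separate animals or cultures. How far the p-values hold beyond these samples is therefore not known. They weigh a difference of means against a spread that all 6 groups share, which in the second fit is what remains after the culture is removed. The script was tested on simulated data. A check of the knockout at the RNA level is not reported here. The number of arrays limits the precision.

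The members and lists were chosen with earlier results of these data known. Values by array are given for Mki67, Top2a, Cdk1, Ccnb2, Plk1, Foxm1, Mcm2, Mcm5, Rrm2, Pcna, E2f1, Ccne1 and Ccne2 and, in each comparison, for up to 4 called S phase and 4 called mitotic members with the smallest adjusted p. Cenpe, Bub1, Tyms, Ube2c, Mcm7 and Cdc45 were singled out after their values were seen. Further lists are named by up to 3 called genes with the smallest adjusted p, and by others where a count was small. Alternatives changed the block, array weights, centring, the treatment of probe sets, dim genes and arrays left out in turn. Promoter letters come from RefSeq on GRCm38.p6 and were searched as text. Python 3.11.15 with pandas 2.3.3 and matplotlib 3.10.9 made the tables and plots.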

Additional observations from a re-analysis of the deposited data

Results flagged for a closer look

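With the culture as a block, limma's test of the interaction at 6 h of LPS, the knockout change minus the wild-type change, passed an adjusted p of 0.05 for 21 of the 39 members, each time with the knockout lower. Among the replication genes the values were -1.08 for Mcm2, -1.16 for Mcm3, -0.69 for Mcm4, -0.58 for Rrm1, -0.77 for Rrm2, -0.59 for Cdc45 and -0.73 for Ccne2. Among cyclins and kinases they were -0.76 for Ccnb2, -1.17 for Ccna2, -0.71 for Aurka, -0.71 for Plk1 and -0.995 for Melk. In genes of the spindle checkpoint and anaphase they were -0.83 for Cdc20, -1.44 for Bub1 and -1.83 for Bub1b. In genes of the spindle and chromosomes they were -0.88 for Kif11, -1.31 for Kif20a, -1.49 for Kif23, -0.76 for Nusap1, -0.70 for Birc5 and -1.22 for Top2a. Without the block none of the 21 passed.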

How the results depend on the processing

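The counts of called members are those of limma. Between genotypes at 6 h of LPS, 15 members were called, against 26 with array weights, 8 with every probe set tested, 28 with the replicate block across genotypes and 23 with the culture as a random block (correlation 0.27); leaving out each replicate gave 5 to 24. Without LPS and at 1 h, the replicate block across genotypes called 2 members each, and leaving out each replicate called 0. In wild type at 6 h, 1 was called, against 0 with only the groups compared, 0 with centred arrays, 4 without knockout culture 3, 12 with the culture as a replicate block and 2 with the random block; leaving out each replicate gave 0 to 2. In the knockout at 6 h, 12 were called, against 25 with array weights, 25 without knockout culture 3, 37 with the culture as a replicate block and 23 with the random block; leaving out each replicate gave 6 to 29. For the interaction at 6 h, 0 were called, against 4 with array weights, 1 with centred arrays, 1 with dim genes left out, 6 without knockout culture 3, 21 with the culture as a replicate block and 6 with the random block; leaving out each replicate gave 0 to 4, with 4 without unstimulated knockout array 3 and 1 without knockout 1 h array 3 or 6 h array 1. The causes were not tested. No called member changed its direction. The block across genotypes joins cultures of the same number, which were linked only weakly between genotypes (median correlation 0.09). The S phase and mitotic means moved by less than 1 SD under centring and under the mean of the probe sets. Cdc6, Ttk and Cenpf are the dimmest members, at percentiles 50.5, 53.6 and 54.3 of mean level, and the arrays give no detection calls.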
